A study of Mus musculus with 6 samples.

Results

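FGF receptors are receptor tyrosine kinases that bind fibroblast growth factors together with heparan sulfate. The active receptor recruits the adaptor FRS2 and the GRB2-SOS complex, which turns on RAS, RAF, MEK and ERK. ERK activity induces its own inhibitors, among them Sprouty and Spred proteins and the phosphatase DUSP6, and the PEA3 ETS factors Etv4 and Etv5, so the transcripts of these genes are widely read as a gauge of FGF and ERK output. In the mammary gland, FGFR1 and FGFR2 act in the outgrowth and branching of the ducts.

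The 10 genes described here are Fgfr1, Fgfr2, Fgfr3, Spry1, Spry2, Spry4, Spred1, Dusp6, Etv4 and Etv5. They were chosen by name from the array annotation, as every probe set assigned to 1 of these symbols and to no other gene, and they have 29 of the 45101 probe sets and are 10 of the 18194 genes with a probe set of their own. The cells were YFP+ luminal mammary epithelial cells (MECs), sorted as Lin-CD24+CD29lo from adult virgin female mice of a mixed B6/129/FVB background. The 3 Runx1-null mice were MMTV-Cre;Runx1L/L;R26Y and the 3 Runx1-WT mice were MMTV-Cre;Runx1+/+;R26Y, so both groups carried the MMTV-Cre transgene and the R26Y reporter, in which Cre switches on YFP. RNA was amplified and hybridized to 1 Affymetrix Mouse Genome 430 2.0 array per mouse, and values are linear intensities that the authors had normalized with dChip. In this model MMTV-Cre acts mainly in luminal MECs and also in a portion of basal MECs. The methods describe littermates, without naming the litters. The question was whether FGF receptor and ERK feedback transcripts differed between Runx1-null and Runx1-WT luminal cells.

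The floxed Runx1 allele loses exon 4. On the brightest of its 6 probe sets, Runx1 had an intensity of 3473, 4820 and 2277 in Runx1-null mice 1 to 3, against 4082, 3855 and 2015 in Runx1-WT mice 1 to 3. The groups overlapped on all 6 probe sets. Where these probe sets lie relative to exon 4 is not known here, so they do not check the labels, and the group names below are those of the labels. By qRT-PCR, the authors reported loss of Runx1 in YFP+ MECs sorted from Runx1L/L females. In YFP+ mature luminal cells of such females they found Runx1 only slightly lower, and they propose that many of these had escaped excision. Array medians were 106 to 148 in Runx1-null mice and 129 to 163 in Runx1-WT mice. The summed intensity of 9 luminal epithelial markers was 72979 to 78038 in Runx1-null mice and 71858 to 76219 in Runx1-WT mice, and all 9 were above the intensity filter. Markers of other cells were also measured. The 10 basal and myoepithelial markers summed to 14868, 15047 and 5410 in Runx1-null mice and to 7479, 5421 and 13899 in Runx1-WT mice, with Myh11 and Cnn1 below the filter, and the 8 endothelial markers summed to 1239 to 1404 in Runx1-null mice and 1716 to 2356 in Runx1-WT mice, with Cdh5 below the filter and no overlap between the groups. Fibroblast markers summed to 9154 to 15372 in Runx1-null and 13439 to 17600 in Runx1-WT mice. Leukocyte markers summed to 1459, 1023 and 1662 in Runx1-null mice and to 1199, 1261 and 4271 in Runx1-WT mice. Runx1-WT mouse 3 alone was above the range of the Runx1-null mice, and Ptprc and Itgam were below the filter.

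None of the 10 genes passed the test for a difference between Runx1-null and Runx1-WT cells, and the values of the genotypes overlapped for each. With limma over 12152 genes (Runx1-null minus Runx1-WT, on log2 values with a floor of 19.335), 0 of the 10 genes passed a Benjamini-Hochberg adjusted p under 0.05, and 0% of all genes tested did. At an unadjusted p under 0.05 the count was 0 of 10, against 1.93% of all genes tested. Groups without overlap numbered 0 among the 10 genes and made up 5.55% of all genes tested. The adjusted p was 1.0 for each of the 10, the smallest unadjusted p was 0.144 for Fgfr3, and the smallest exact permutation p was 0.2, where 0.1 is the smallest two-sided p that 3 mice against 3 allow. The median log2 difference of the 10 genes was -0.05 and that of all genes tested was -0.02, and the median absolute log2 difference was 0.06 for the 10 genes and 0.13 for all genes tested. In bulk RNA of sorted cells, fewer cells of a type and less RNA per cell cannot be told apart.

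The same held over the probe sets. Of the 29, 25 passed the intensity filter, set at the 40th percentile of the mean intensities (73.5). Among these 25, 0 had an adjusted p under 0.05, as did 0% of all 22708 probe sets tested, and 0 had an unadjusted p under 0.05, against 1.68% of all. The groups overlapped for all 25, while they did not overlap for 5.21% of all probe sets tested, and they overlapped for the 4 dim probe sets as well, which belong to Fgfr3, Spry4, Spred1 and Etv4. The difference was above 0 for 3 of the 10 genes and below 0 for 7, and above 0 for 7 of the 25 probe sets and below 0 for 18. This split moved with the scaling of the arrays. It was 5 above and 5 below for the 10 genes after quantile normalization, and 8 above and 2 below after median scaling, where all genes tested went to 7861 above and 4291 below, against 5414 above and 6738 below as deposited.

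**Figure D1:**
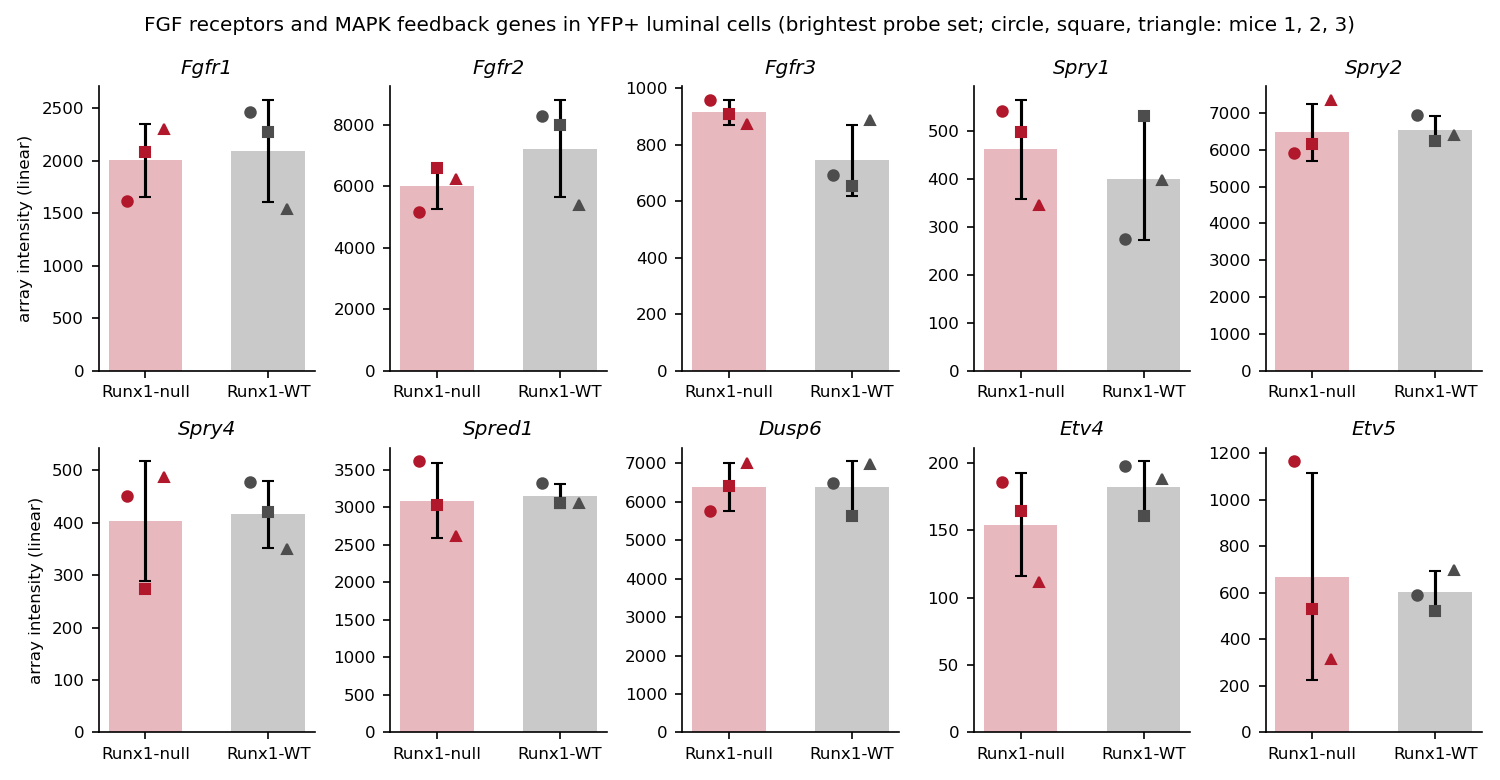
Linear array intensity of the 10 genes, on the brightest probe set of each, in 3 Runx1-null mice (red, left) and 3 Runx1-WT mice (grey, right). Bars are means, error bars are SD (n = 3), and circles, squares and triangles are mice 1, 2 and 3. The groups overlap in all 10 panels, and the points spread most for Etv5, with Runx1-null mouse 1 at 1166 and Runx1-null mouse 3 at 314.

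Fgfr1, a receptor that binds a broad set of FGFs, had an intensity of 1618, 2085 and 2304 in Runx1-null mice 1 to 3, against 2467, 2272 and 1543 in Runx1-WT mice 1 to 3. Runx1-WT mouse 3 and Runx1-null mouse 1 were the lowest, so the groups overlapped. Fgfr1 averaged 2002 ± 350 in Runx1-null and 2094 ± 487 in Runx1-WT mice (SD, n = 3 each), a log2 difference of -0.05 ± 0.23 (SE; limma, adjusted p = 1.0). The 95% interval of the ratio ran between 0.662-fold and 1.41-fold. All 3 probe sets of Fgfr1 had the same mice as their lowest, Runx1-WT mouse 3 and Runx1-null mouse 1, and their log2 differences lay between -0.05 and 0.05.

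Fgfr2, whose epithelial isoform receives FGF7 and FGF10 signals from the stroma, had an intensity of 5177, 6589 and 6243 in Runx1-null mice, against 8292, 8004 and 5402 in Runx1-WT mice. Runx1-WT mice 1 and 2 lay above all Runx1-null mice, and Runx1-WT mouse 3 lay below Runx1-null mice 2 and 3. The mean was 6003 ± 736 in Runx1-null and 7233 ± 1592 in Runx1-WT mice (SD, n = 3 each), a log2 difference of -0.25 ± 0.18 (SE; limma, adjusted p = 1.0). The ratio's 95% interval reached 0.626-fold below and 1.13-fold above. On its second brightest probe set, Fgfr2 had 274, 448 and 468 in Runx1-null mice and 1072, 960 and 320 in Runx1-WT mice, with a log2 difference of -0.84 ± 0.49 (SE). On the dimmest the difference was -0.70 ± 0.48 (SE). All 3 probe sets showed Runx1-WT mouse 1 as the highest and Runx1-WT mouse 3 among the 2 lowest. Without Runx1-WT mouse 3 the log2 difference of Fgfr2 was -0.45 ± 0.12 (SE), with an unadjusted p of 0.00864 in limma and an adjusted p of 0.731. In that setting 6.73% of all genes tested had an unadjusted p under 0.05 in limma. With each mouse left out in turn, the difference of Fgfr2 ran between -0.45 and -0.14, so the value without Runx1-WT mouse 3 was the most extreme.

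Fgfr3, a receptor most often described in cartilage and urothelium, had an intensity of 960, 910 and 873 in Runx1-null mice, against 692, 654 and 888 in Runx1-WT mice. Runx1-WT mice 1 and 2 were the lowest, and Runx1-WT mouse 3 lay within the range of the Runx1-null mice. The means were 915 ± 43.7 in Runx1-null and 745 ± 126 in Runx1-WT mice (SD, n = 3 each), a log2 difference of 0.31 ± 0.19 (SE; limma, adjusted p = 1.0). The interval of the ratio was 0.911-fold to 1.68-fold. Without Runx1-WT mouse 3 the log2 difference was 0.44 ± 0.17 (SE), with an adjusted p of 0.731 in limma. This was the most extreme value with 1 mouse left out, where the difference of Fgfr3 ran between 0.22 and 0.44. The dimmer probe set of Fgfr3 stayed under the filter, at 72.5 to 82.6 in Runx1-null mice and 49.3 to 83.5 in Runx1-WT mice.

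Spry1, a Sprouty inhibitor of receptor tyrosine kinase signalling, had an intensity of 542, 498 and 346 in Runx1-null mice, against 274, 530 and 397 in Runx1-WT mice. Runx1-WT mouse 1 was the lowest of the 6, and the other values were interleaved. The log2 difference was 0.23 ± 0.31 (SE; limma, adjusted p = 1.0), and without Runx1-WT mouse 1 it was -0.02.

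Spry2, the Sprouty that is induced by FGF in many epithelia, had an intensity of 5909, 6152 and 7358 in Runx1-null mice, against 6950, 6246 and 6399 in Runx1-WT mice. Runx1-null mice held both the lowest and the highest values. It averaged 6473 ± 776 in Runx1-null and 6532 ± 370 in Runx1-WT mice (SD, n = 3 each), a log2 difference of -0.02 ± 0.10 (SE; limma, adjusted p = 1.0), and the interval of 0.84-fold to 1.16-fold for the ratio was the narrowest among the 10 genes. Its other probe set was dim, at 50, 66.8 and 87.7 in Runx1-null mice and at 74.0, 268 and 92.8 in Runx1-WT mice. The log2 difference there was -0.89 ± 0.53 (SE), with Runx1-WT mouse 2 far above the other 5 mice.

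Spry4, another Sprouty induced by ERK activity, had an intensity of 450, 274 and 487 in Runx1-null mice, against 477, 420 and 350 in Runx1-WT mice. Runx1-null mouse 2 was the lowest and Runx1-null mouse 3 the highest. The log2 difference was -0.08 ± 0.28 (SE; limma, adjusted p = 1.0), and its 3 probe sets above the filter ran between -0.19 and 0.25.

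Spred1, a Sprouty-related protein that brings neurofibromin to the membrane to switch off RAS, is covered by 8 probe sets, of which 7 passed the filter. On the brightest it had an intensity of 3614, 3033 and 2612 in Runx1-null mice, against 3327, 3062 and 3049 in Runx1-WT mice. Runx1-null mice 1 and 3 bracketed all Runx1-WT mice. The log2 difference was -0.04 ± 0.14 (SE; limma, adjusted p = 1.0). All 7 probe sets had a difference below 0, from -0.04 to -0.51, and on all 7 Runx1-null mouse 3 was the lowest of the 6 mice, as on the probe set with the most negative difference, with 1116, 1448 and 653 in Runx1-null mice against 1725, 1328 and 1327 in Runx1-WT mice. These probe sets read the same gene and are not independent. That mouse also had the largest excess of the 3′ over the 5′ control probe set of beta-actin, a log2 value of 0.74 against 0.44 to 0.52 in the other 5, and the largest share of values below the floor, 22.3% against 18.8% to 20.6%. The part of these in the low Spred1 values was not tested. Without Runx1-null mouse 3 the log2 difference on the brightest probe set was 0.07, and the other probe sets were not fitted without this mouse. On the probe set with the most negative difference, Runx1-null mouse 1 also lay below all Runx1-WT mice, and Runx1-null mouse 2 lay between them.

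Dusp6, the cytoplasmic phosphatase that acts on ERK, had an intensity of 5752, 6413 and 7005 in Runx1-null mice, against 6496, 5628 and 6983 in Runx1-WT mice. The values of the genotypes were interleaved, and each group held a mouse near the top and a mouse near the bottom. Dusp6 averaged 6390 ± 627 in Runx1-null and 6369 ± 686 in Runx1-WT mice (SD, n = 3 each), a log2 difference of 0.01 ± 0.11 (SE; limma, adjusted p = 1.0). The 95% interval of the ratio was 0.84-fold to 1.20-fold, a half-width of 0.26 in log2, and this width depended on the setting. The half-width was 0.22 after quantile normalization, 0.36 in limma without the trend and 0.34 with the methods' t-test. After median scaling it was 0.53, around a log2 difference of 0.10. Dusp6 has 1 probe set on the array.

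Etv4, a PEA3 ETS transcription factor, had an intensity of 186, 164 and 112 in Runx1-null mice, against 198, 160 and 188 in Runx1-WT mice. Runx1-null mouse 3 was the lowest, and the others overlapped. The log2 difference was -0.27 ± 0.28 (SE; limma, adjusted p = 1.0), and -0.05 without Runx1-null mouse 3.

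Etv5, its close relative, spread the most. Its intensity was 1166, 529 and 314 in Runx1-null mice, against 590, 522 and 699 in Runx1-WT mice. Runx1-null mouse 1 was the highest and Runx1-null mouse 3 the lowest, 3.72-fold apart, with the Runx1-WT mice between them. The log2 difference was -0.05 ± 0.46 (SE; limma, adjusted p = 1.0), and the ratio's interval ran between 0.454-fold and 2.05-fold, the widest among the 10. Leaving out Runx1-null mouse 1 gave -0.56, and leaving out Runx1-null mouse 3 gave 0.39. On the other probe sets it was 0.08 and 0.50, and Runx1-null mouse 1 was the highest on all 3.

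**Figure D2:**
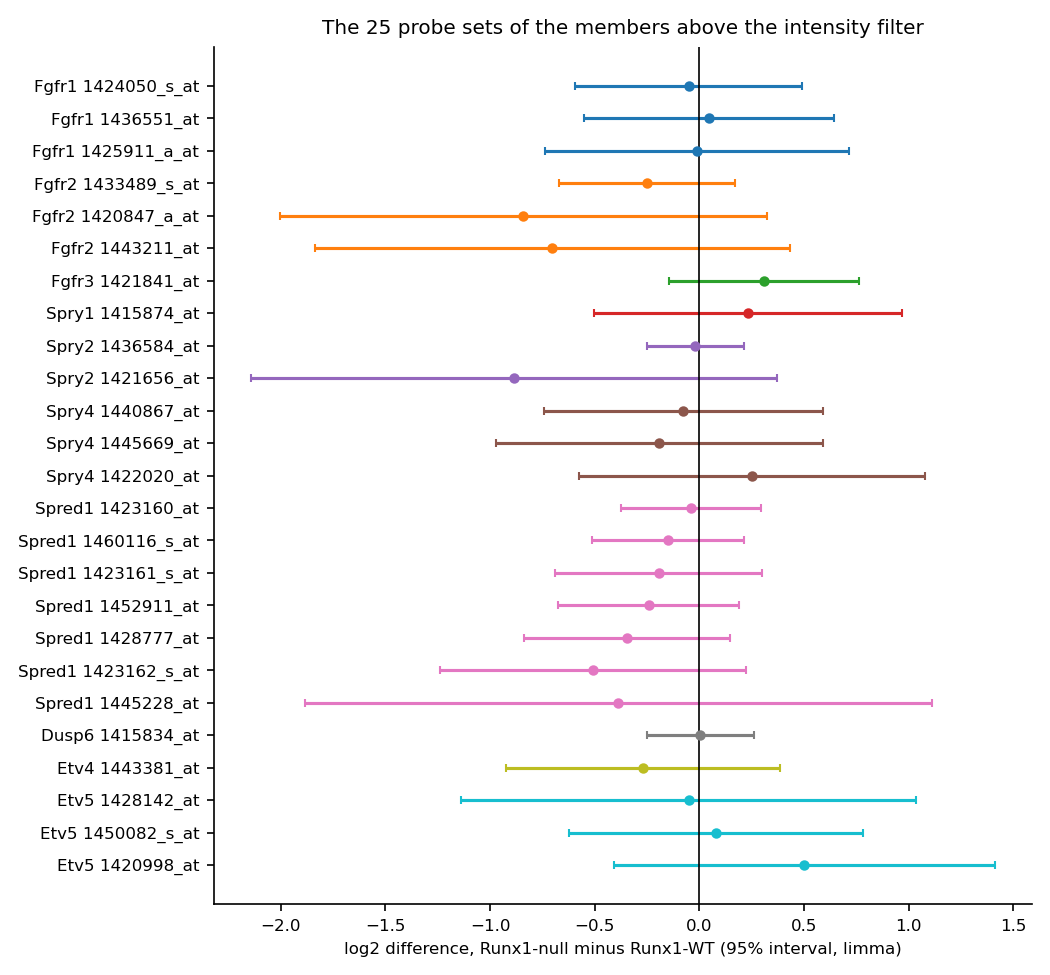
Log2 difference (x axis, Runx1-null minus Runx1-WT) of each of the 25 probe sets of the 10 genes above the filter, with 95% intervals from limma (3 mice per genotype). Colours mark genes, with the brightest probe set of each gene on top. All 25 intervals include 0, and those of Spry2 and Dusp6 on their brightest probe sets are the narrowest.

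RUNX1 binds DNA at the letters TGTGGT or TGCGGT. These were searched on both strands in the promoter windows that RefSeq gives for GRCm38.p6, from 250 bases before to 50 after each start. A window was read for 7 of the 10 genes (9 windows). Either motif was in 1 of the 9 windows, against 22.4% of 32851 windows over all genes (TGTGGT in 16.8% and TGCGGT in 6.45%). The window with the match belongs to a start site of Etv5, at chr16:22438369-22438618 on the minus strand for its 250 bases before the start, and the match lies 156 bases before it. It is printed as the only match among the genes, with the motif in capitals, beside the same stretch of Fgfr2 at chr7:130266809-130267058 on the minus strand, printed as a receptor whose level is set beside the mature luminal markers, where neither motif was found. Both are given 5′ to 3′.
Etv5: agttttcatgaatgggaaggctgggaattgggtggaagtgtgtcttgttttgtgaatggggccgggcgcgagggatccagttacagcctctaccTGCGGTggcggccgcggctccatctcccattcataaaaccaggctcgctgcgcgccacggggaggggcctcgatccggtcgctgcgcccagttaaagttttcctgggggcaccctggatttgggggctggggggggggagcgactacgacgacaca
Fgfr2: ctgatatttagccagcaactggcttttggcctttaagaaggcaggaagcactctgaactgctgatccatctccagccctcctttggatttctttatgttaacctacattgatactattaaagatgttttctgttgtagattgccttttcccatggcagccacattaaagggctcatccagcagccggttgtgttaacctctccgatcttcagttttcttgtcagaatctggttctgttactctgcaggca
A match or its absence in a window describes these letters only. The other Etv5 window held no match.

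Markers of mature luminal cells, the hormone-sensing cells of the ducts, differed among the mice, and the receptor levels were set beside them. The mature luminal list had 10 genes, of which 7 had a probe set of their own here (Esr1, Pgr, Foxa1, Cited1, Tnfsf11, Wnt4 and Prom1). All 7 were above the filter, and 1, Wnt4, was lower in all Runx1-null mice than in any Runx1-WT mouse. Over all genes tested, the groups of 5.55% did not overlap. Their summed intensity was 16062, 25625 and 27918 in Runx1-null mice, against 33208, 31852 and 24665 in Runx1-WT mice, so Runx1-WT mouse 3 lay among the Runx1-null mice. Tnfsf11 made up 4980 of the sum in Runx1-WT mouse 3 and was at 337 or lower in the other 5 mice. Esr1, which encodes the estrogen receptor, was at 3593, 4345 and 5399 in Runx1-null mice and at 6067, 6271 and 3055 in Runx1-WT mice. Pgr was at 2906, 5641 and 7128 in Runx1-null mice and at 5145, 5978 and 2865 in Runx1-WT mice, highest in Runx1-null mouse 3. Cited1 was at 2412, 4383 and 1372 in Runx1-null mice and at 6591, 5743 and 4359 in Runx1-WT mice, lowest in Runx1-null mouse 3. Foxa1 was at 4193, 4644 and 5426 in Runx1-null mice and at 6493, 6086 and 5127 in Runx1-WT mice. Prom1 was at 2067, 5762 and 7227 in Runx1-null mice and at 7311, 6241 and 2780 in Runx1-WT mice. The summed markers thus did not rank the mice in the same order.

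Relations of each of the 10 genes to 8 marker lists were computed over the 6 mice, on log2 of the gene's intensity and of the summed markers, 80 in all, and were chosen after seeing the data. None had an adjusted p under 0.05 (smallest 0.667, exact permutation of pairings, two-sided). Of the 80, 4 had an unadjusted p under 0.05, which is the share that this threshold passes on average where no relation exists. For Fgfr2 and the mature luminal markers, Pearson's r was 0.86 (exact permutation p = 0.00833) and Spearman's rho was 0.94 (exact permutation p = 0.0167). Without the 2 mice farthest from the median of the markers, r was 0.89, and within genotypes, as deviations from each genotype's mean, it was 0.81. For Fgfr1, r was 0.79 (exact permutation p = 0.0361), rho was 0.89 (exact permutation p = 0.0333), and r was 0.73 without the 2 farthest mice and 0.90 within genotypes. Fgfr3 ran opposite, with an r of -0.79 (exact permutation p = 0.0403), a rho of -0.89 (exact permutation p = 0.0333), and an r of -0.91 without the 2 farthest mice and -0.67 within genotypes. The remaining relation of the 4 was that of Fgfr3 to the endothelial markers, whose sums did not overlap between the genotypes, so no pooled r is given for it. Dusp6 had an r of 0.25 with the mature luminal markers (exact permutation p = 0.658) and a rho of 0.03 (exact permutation p = 1.0). Of the remaining genes, Etv5 had an r of -0.72 with these markers (exact permutation p = 0.136). Its r was -0.92 within genotypes and -0.36 without the 2 farthest mice. Spry2, Spry1, Spred1, Etv4 and Spry4 had an r of 0.60, -0.54, -0.49, -0.20 and 0.08, with exact permutation p values of 0.199 or higher. Within genotypes these were 0.68, -0.46, -0.71, -0.66 and 0.00. The 9 luminal progenitor markers summed to 50738, 53618 and 55483 in Runx1-null mice and to 50052, 43076 and 51425 in Runx1-WT mice, lowest in Runx1-WT mouse 2, where Dusp6 was lowest too. Dusp6 had an r of 0.74 with them (exact permutation p = 0.0708) and a rho of 0.71 (exact permutation p = 0.136), with an r of 0.94 within genotypes but 0.16 without the 2 farthest mice, so it rests on those mice. Whether the makeup of the sorted cells accounts for the receptor levels was not tested. The basal marker sums fell into separate clusters, with Runx1-null mice 1 and 2 and Runx1-WT mouse 3 high, and no pooled r is given for them.

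**Figure D3:**
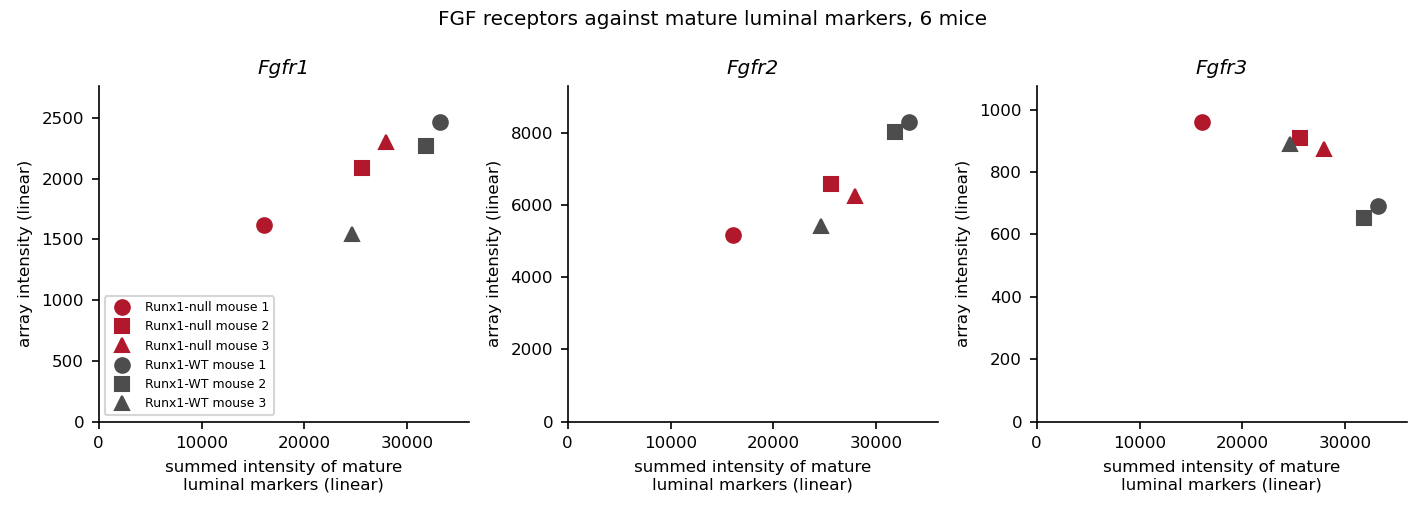
Linear intensity of Fgfr1, Fgfr2 and Fgfr3 (y axis) against the summed intensity of 7 mature luminal markers (x axis), 1 point per mouse. Runx1-null mice are red and Runx1-WT mice grey, with circles, squares and triangles for mice 1, 2 and 3. Fgfr1 and Fgfr2 go up and Fgfr3 goes down along the x axis, and Runx1-WT mouse 3 (grey triangle) sits with the Runx1-null mice for Fgfr2 and Fgfr3.

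Among the 10 genes themselves, 45 pairs were compared over the 6 mice. None had an adjusted p under 0.05 (smallest 0.425) and 5 had an unadjusted p under 0.05. Fgfr2 and Fgfr3 ran opposite, with an r of -0.91 (exact permutation p = 0.0222) and a rho of -0.77 (exact permutation p = 0.103). For this pair r was weaker, -0.52, without Runx1-WT mice 1 and 2, but -0.92 within genotypes and -0.90 after quantile normalization. Fgfr1 and Fgfr2 ran together, with an r of 0.88 (exact permutation p = 0.0472) and a rho of 0.77 (exact permutation p = 0.103), and r was 0.59 without the 2 farthest mice. Spred1 and Etv5 had an r of 0.92 (exact permutation p = 0.0333) and a rho of 0.71 (exact permutation p = 0.136), but r was 0.08 without Runx1-null mice 1 and 3, so it rests on those mice. Spry1 and Spry2 ran opposite, with an r of -0.85 (exact permutation p = 0.0361) and a rho of -0.89 (exact permutation p = 0.0333), and r was -0.78 without the 2 farthest mice and -0.63 after quantile normalization. Spred1 and Etv4 had an r of 0.85 (exact permutation p = 0.0389) and a rho of 0.60 (exact permutation p = 0.242), and r was 0.72 without the 2 farthest mice and 0.39 after quantile normalization. With Dusp6, the receptors had an r of 0.00 (exact permutation p = 1.0; rho 0.14, exact permutation p = 0.803) for Fgfr1 and -0.20 (exact permutation p = 0.676; rho -0.14, exact permutation p = 0.803) for Fgfr2.

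The animal numbers in the labels fall into a lower range with 4 mice (mice 1 and 2 of each genotype) and an upper range with 2 (mouse 3 of each). Within the lower range, 4 of the 10 genes did not overlap between the genotypes, Fgfr1, Fgfr2 and Spry2 lower and Fgfr3 higher in Runx1-null mice, where 50.5% of all genes tested did not overlap. Fgfr2 and Fgfr3 had an unadjusted p under 0.05 there, 2 of 10 genes, against 15.4% of all genes, and 0 of 10 had an adjusted p under 0.05, as did 0 of all genes tested. The log2 difference of Fgfr2 was -0.48 in the lower range (limma, adjusted p = 0.27) and 0.21 in the upper, where 1 mouse per genotype allows no test. For Fgfr3 it was 0.47 in the lower range (limma, adjusted p = 0.309) and -0.02 in the upper, and for Fgfr1 -0.37 (limma, adjusted p = 0.382) and 0.58. Etv5 had a log2 difference of 0.50 in the lower range and -1.16 in the upper. Dusp6 had 0.01 in the lower range and 0.00 in the upper. Neither range held enough mice for a correlation of its own. What the ranges stand for is not stated in the labels.

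Leaving out single mice moved these counts as well. Without Runx1-WT mouse 3, Fgfr2 (lower) and Fgfr3 (higher in Runx1-null mice) no longer overlapped and had an unadjusted p under 0.05 in limma, where 25.7% of all genes tested did not overlap and 6.73% had such a p. Without Runx1-null mouse 3, Fgfr3 (higher) and Spry2 (lower) did not overlap, against 19.9% of all genes. Without Runx1-null mouse 1, Spred1 (lower) did not overlap, against 11% of all genes, and without Runx1-WT mouse 2, Etv4 (lower), against 13.9%. In each case 0 of the 10 genes had an adjusted p under 0.05.

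The rest of the pathway was read from 6 lists, and 0 genes of any list passed an adjusted p under 0.05 in limma. Of 22 FGF ligands, 8 passed the filter, 1 above 0 and 7 under 0, and their median was -0.14, against -0.02 for all genes tested. This split moved with the scaling, to 4 above and 4 under 0 after either quantile normalization or median scaling, with a median of -0.05 under both, and the median ran between -0.31 and -0.04 with 1 mouse left out and was 0.30 in the upper range of animal numbers. Fgf1 had 666, 1199 and 1050 in Runx1-null mice, against 1509, 1155 and 1660 in Runx1-WT mice, a log2 difference of -0.60 ± 0.27 (SE; limma, unadjusted p = 0.0634). Runx1-null mouse 2 lay above Runx1-WT mouse 2, so the groups overlapped. Fgf13, an intracellular FGF homologue, was at 182, 1007 and 1227 in Runx1-null mice and at 2002, 2068 and 201 in Runx1-WT mice, with Runx1-WT mouse 3 and Runx1-null mouse 1 again low. Fgf14, of the same intracellular family, was at 444, 189 and 20.4 in Runx1-null mice and at 106, 15.2 and 1334 in Runx1-WT mice, highest in Runx1-WT mouse 3.

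Of 20 co-receptors and modulators, 15 passed the filter, 7 above and 8 under 0, and the median was -0.01. The split was 10 above and 5 under 0 after median scaling, and the median ran between -0.05 and 0.06 with 1 mouse left out. The heparan sulfate carriers Sdc4 and Sdc1 had log2 differences of -0.04 ± 0.06 and 0.05 ± 0.08 (SE), and the adhesion protein Cdh1 had -0.01 ± 0.06 (SE). Gpc1, a glypican, was the 1 gene of the list with an unadjusted p under 0.05, at 2181, 2706 and 2130 in Runx1-null mice against 3631, 3776 and 2690 in Runx1-WT mice, a log2 difference of -0.52 ± 0.18 (SE; limma, unadjusted p = 0.0218, adjusted p = 1.0). Sdc2, a syndecan, was the 1 gene of the list whose groups did not overlap, at 2555, 3484 and 3554 in Runx1-null mice against 4012, 3749 and 3727 in Runx1-WT mice (limma, unadjusted p = 0.106). Both were picked out after their values were seen. Of 16 adaptor genes, 15 passed, 5 above and 10 under 0, and the median was -0.02. This direction did not hold, with 9 above and 6 under 0 after either quantile normalization or median scaling and 12 above and 3 under 0 without Runx1-null mouse 3, and the median ran between -0.15 and 0.11 with 1 mouse left out. The adaptor Crk had a log2 difference of 0.00 ± 0.10 (SE). Ptpn11, which encodes the phosphatase SHP2, was at 4504, 4485 and 4393 in Runx1-null mice and at 4295, 3969 and 4237 in Runx1-WT mice, and Grb2, the adaptor that carries SOS, at 3543, 4232 and 3971 in Runx1-null mice and at 4423, 4243 and 4303 in Runx1-WT mice. The groups overlapped for neither, with log2 differences of 0.10 ± 0.08 and -0.15 ± 0.10 (SE), but limma gave unadjusted p values of 0.254 and 0.175.

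Of 19 genes of RAS, RAF, MEK and ERK, 13 passed, 5 above and 8 under 0, and the median was -0.03. After median scaling it was 9 above and 4 under 0, and the median ran between -0.06 and 0.03 with 1 mouse left out. Rras2, Shoc2 and Nras, a RAS-related GTPase, a scaffold of RAF activation and a RAS protein, had log2 differences of -0.14 ± 0.08, -0.11 ± 0.10 and -0.04 ± 0.12 (SE). Mras, another RAS-related GTPase, was at 1052, 1072 and 1066 in Runx1-null mice and at 1247, 1614 and 1405 in Runx1-WT mice, a log2 difference of -0.41 ± 0.16 (SE; limma, unadjusted p = 0.0397, adjusted p = 1.0), and it was picked out after its values were seen. Of 20 other feedback genes of ERK, 17 passed, 9 above and 8 under 0, and the median was 0.00, or between -0.06 and 0.05 with 1 mouse left out. Errfi1, an inhibitor of EGFR, had 0.01 ± 0.10, Pebp1, which binds RAF, had 0.04 ± 0.05, and Dusp5, a nuclear ERK phosphatase, had 0.08 ± 0.08 as log2 differences (SE). Dusp4, picked out after its values were seen, had the largest difference of this list, -0.70 ± 0.30 (SE; limma, unadjusted p = 0.0503). It was at 1484, 2445 and 3165 in Runx1-null mice and at 4027, 4270 and 2868 in Runx1-WT mice, so the groups overlapped. Of 23 early genes induced by ERK, 22 passed, 17 above and 5 under 0, and the median was 0.05. This split was 21 above and 1 under 0 after median scaling, but 9 above and 13 under 0 without Runx1-null mouse 2, 10 above and 12 under 0 without Runx1-WT mouse 3 and 8 above and 14 under 0 in the lower range of animal numbers. The median ran between -0.01 and 0.12 with 1 mouse left out. The transcription factors Ets2 and Egr1 and the survival factor Mcl1 had log2 differences of 0.00 ± 0.06, 0.06 ± 0.08 and 0.01 ± 0.08 (SE). Ier3, an early gene that responds to ERK and stress, was at 7462, 8228 and 7998 in Runx1-null mice and at 7066, 5934 and 5930 in Runx1-WT mice, a log2 difference of 0.33 ± 0.09 (SE; limma, unadjusted p = 0.00739, adjusted p = 1.0), and it too was picked out after its values were seen. The genes whose groups did not overlap were 0 to 2 a list, where 5.55% of all genes tested did not overlap.

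**Figure D4:**
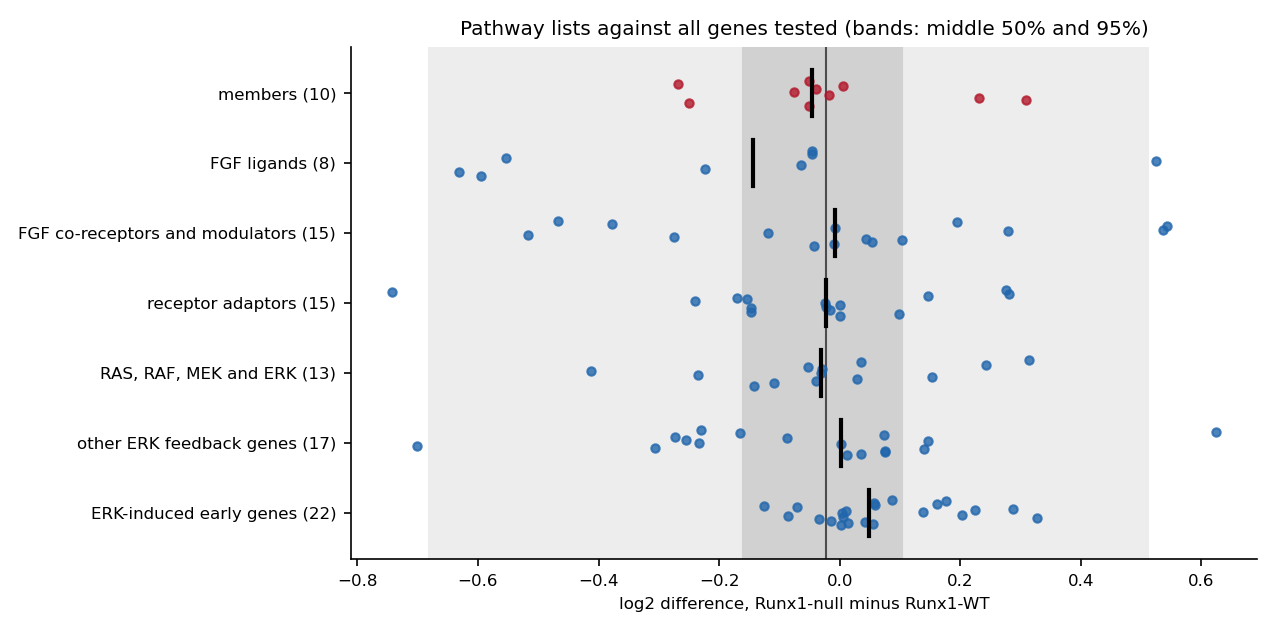
Log2 difference (x axis, Runx1-null minus Runx1-WT) of the 10 genes (red, top row) and of the tested genes of 6 pathway lists (blue), with 1 point per gene and a black bar at each median. The dark and light bands hold the middle 50% and 95% of all 12152 genes tested (-0.16 to 0.10 and -0.68 to 0.51). The 10 genes all lie within the light band, with a median of -0.05.

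For Fgfr2 and Dusp6 the most similar profiles over the 6 mice were looked up among 12142 other tested genes by Pearson's r of log2 values. The closest to Fgfr2 were Abhd17c, Lrrc26 and Svip, with an r of 0.998, 0.998 and 0.997, and 430 genes had an r over 0.9. Abhd17c had 3020, 3707 and 3590 in Runx1-null mice and 4454, 4432 and 3150 in Runx1-WT mice, in the same order of mice as Fgfr2. The closest to Dusp6 were Aptx, Nrbp2 and As3mt, and 248 genes had an r over 0.9. Aptx had 552, 654 and 758 in Runx1-null mice and 670, 542 and 739 in Runx1-WT mice. With 6 mice and so many genes searched, these are a description only.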

How the data were processed

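YFP+ luminal MECs of 3 Runx1-null and 3 Runx1-WT mice were measured, with 1 array per mouse. The deposited table holds linear intensity values for 45101 probe sets, which the authors had amplified, hybridized and normalized across arrays with dChip (version and model not given in the sources used here). No further normalization was applied. The number of arrays limits the precision.

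Probe sets were named through the platform annotation: 34958 had 1 gene, 932 several and 9211 were unnamed, and only the first kind was used. A floor of 19.335 (20th percentile of all values) was put under the intensities before log2, so differences of dim genes are understated. The brightest probe set stood for each gene. Genes with a mean over the 40th percentile (73.5), 12152 in all, entered limma 3.58.1 in R 4.3.3 (lmFit, eBayes with trend, Benjamini-Hochberg). Single values and correlations were tested by exact permutation (Python 3.11.15, scipy 1.17.1). On simulated arrays of 12152 genes, the code recovered 24% of 100 genes changed 2-fold and 67% of 100 changed 4-fold, with 8 false calls. The gene list was chosen by name, and the members and lists were chosen with earlier results of these data known. Genes named from each pathway list were the 3 brightest that passed the filter and any with an adjusted p under 0.05, apart from those said to have been picked afterwards. Alternatives were other filters, quantile normalization, median scaling, adding 5.04 to each value instead of a floor, dropping single mice, the animal number range as a block or alone, other variance settings, averaging a gene's probe sets, a looser threshold (0.1) and the methods' t-test. Replicate numbers follow accession order and pair no mice.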

Additional observations from a re-analysis of the deposited data

How the results depend on the processing

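Under the 18 alternatives that allow a test, limma and the methods' t-test called 0 of the 10 genes and 0 of all genes tested after adjustment, also with 0.1 as the threshold. With unadjusted p values under 0.05, limma gave 0 of the 10 genes and the methods' t-test 0 (234 and 335 of all genes), and leaving out 1 mouse gave 0 to 2. The count whose groups do not overlap was 0, against 5.55% of all genes. It was 0 to 2 with 1 mouse left out, and where it was above 0 the share of all genes was 11% to 25.7%. In the lower range of animal numbers alone these counts were 2 and 4, against 15.4% and 50.5% of all genes. The median log2 difference of the 10 genes was -0.05, 0.0459 after median scaling, where the median of all genes was 0.07, and -0.0607 to 0.0124 with 1 mouse left out. Over all genes, the count at an unadjusted p under 0.05 was 535 with no filter, 123 after median scaling, 1866 in the lower range alone and 78 to 818 with 1 mouse left out. No pair of the 10 genes passed an adjusted p under 0.05 after quantile normalization or as deviations from genotype means.

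Directions of differences that never passed a test turned under some alternatives. Median scaling moves the log2 difference of every gene by the same amount, and for the other alternatives the cause was not tested. After median scaling the log2 difference was 0.0398 for Fgfr1, 0.0729 for Spry2, 0.0148 for Spry4, 0.052 for Spred1 and 0.0397 for Etv5. After quantile normalization it was 0.0045 for Spred1 and 0.0458 for Etv5, and with the mean of all probe sets 0.18 for Etv5. In the lower range alone it was 0.0528 for Spred1 and 0.50 for Etv5. In the upper range it was 0.58 for Fgfr1, 0.21 for Fgfr2, -0.0243 for Fgfr3, -0.20 for Spry1, 0.20 for Spry2 and 0.47 for Spry4. With 1 mouse left out it ranged from -0.257 to 0.0946 for Fgfr1, -0.0167 to 0.46 for Spry1, -0.114 to 0.0442 for Spry2, -0.233 to 0.182 for Spry4, -0.159 to 0.0749 for Spred1, -0.0806 to 0.0793 for Dusp6 and -0.56 to 0.39 for Etv5. Etv4 was the 1 gene whose direction held under every alternative that gave it a value (18, as it did not pass the filter at the 60th percentile), at -0.42 to -0.05 with 1 mouse left out. Several of the 18, such as the other variance settings, the looser threshold and the t-test, leave the difference of Etv4 unchanged and could not turn it. In the lower range alone it was -0.03. No paired analysis was possible because the labels give no numbers shared between the genotypes.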
